A study of Mus musculus with 45 samples.

Results

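Myc and the 9 genes of its dimerization network are described here across 4 lymphocyte populations from immunized wild-type (WT) and S1PR4-deficient (KO) mice. The members were Myc, Mycn, Max, Mxd1, Mxd3, Mxd4, Mxi1, Mnt, Mlx and Mlxip, taken by symbol from the count table, which makes 10 rows of the 55450 in it. The mice carried the S1pr4tm1Dgen allele, backcrossed to C57/BL6, and the controls were WT littermates of both sexes, 8 to 12 weeks old. The germline deletion affected all cells of the KO mice, and S1PR4 is a receptor for sphingosine 1-phosphate on leukocytes. Each footpad received 20 µL of an emulsion of incomplete Freund's adjuvant with 50 µg ovalbumin and 5 µg LPS, and cells were sorted from the draining popliteal lymph nodes.

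The T cell populations were follicular helper cells (Tfh, TCRb+CD4+PD1+CXCR5+) and their PD1-CXCR5- counterpart (non-Tfh), taken on day 6. The B cell populations were germinal center B cells (GC B, B220+GL7+Fas+) and GL7-Fas- B cells (non-GC B), taken on day 9. There were 6 samples of each genotype of Tfh, non-Tfh and GC B, and 5 WT and 4 KO samples of non-GC B. Lineage and day coincide in this design, so differences between B and T cells cannot be told apart from differences between the days.

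Myc is a transcription factor that drives cell growth and division, and it binds DNA only as a dimer with Max. The Mxd proteins, Mxi1 and Mnt bind the same partner and recruit corepressors to the same E-box sequence, so they oppose Myc at shared sites. Mlx is a second shared partner: it pairs with some Mxd proteins and with Mlxip (MondoA), a sensor of glucose phosphates that induces Txnip. In germinal centers, Myc is known to be switched on in a small fraction of B cells that have received T cell help, and to be low in most others.

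The 45 libraries held 26299429 to 45548215 expected counts each. S1pr4 had 0 to 40 counts in the 22 KO samples and 505 to 6305 in the 23 WT samples. Summed levels of 12 B cell genes were 8094 to 17848 CPM (counts scaled to library size with TMM normalization, as edgeR gives them) in B cell samples and 61.6 to 506.8 in T cell samples, and those of 12 T cell genes were 8685 to 12051 CPM in T cell samples and 66.8 to 201.1 in B cell samples. The 8 GC B genes summed to 1455 to 2605 CPM in GC B cells and 129.0 to 184.4 in non-GC B cells, and the 8 Tfh genes to 2660 to 4093 CPM in Tfh and 208.6 to 486.3 in non-Tfh cells. Some libraries stood apart. Replicate 3 of GC B KO had the highest level of 8 of 8 plasma cell genes in its group, with a sum of 17942 CPM against 2060 to 8502 in the others and 0 of the 8 genes at 0. Replicate 6 of Tfh KO had the highest level of 6 of 8 myeloid genes, with a sum of 424.3 CPM against 12.4 to 61.0 in the others and 2 of the 8 genes at 0. Replicate 1 of non-GC B KO lay farthest from its group on the leading component of the non-GC B samples.

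The promoters are shown because Myc and Mxd dimers with Max bind the E-box CACGTG. RefSeq windows of GRCm38.p6, which is the mm10 build of the count table, were found for 9 of the 10 members, 11 windows in all, and Myc had none in the table used. The E-box, which reads the same on both strands, was present in the windows of 4 of the 9 genes (Max, Mnt, Mlx and Mxd4) and in 7.15% of all 32851 windows in the table. It began at position -3 from the start for Max, -40 for Mlx, -123 for Mnt and -219 for Mxd4, where -1 is the base before the start. A match is a description of these letters only, and no binding was measured. The 260 bases from 250 before the start to 10 after it are given 5′ to 3′ on the gene's strand, with the E-box in capitals, for these 4 genes and for Mxd3, the member whose level differed most between populations and whose window held no E-box. The windows were chr12:76962239-76962498 (minus strand), chr11:74830674-74830933 (plus), chr11:101087040-101087299 (plus), chr5:34187701-34187960 (minus) and chr13:55329722-55329981 (minus).
Max: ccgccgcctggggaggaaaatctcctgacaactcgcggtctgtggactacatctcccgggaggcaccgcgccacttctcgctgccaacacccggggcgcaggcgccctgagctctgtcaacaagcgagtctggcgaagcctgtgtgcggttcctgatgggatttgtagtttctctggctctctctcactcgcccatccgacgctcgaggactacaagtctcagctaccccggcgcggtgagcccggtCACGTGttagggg
Mnt: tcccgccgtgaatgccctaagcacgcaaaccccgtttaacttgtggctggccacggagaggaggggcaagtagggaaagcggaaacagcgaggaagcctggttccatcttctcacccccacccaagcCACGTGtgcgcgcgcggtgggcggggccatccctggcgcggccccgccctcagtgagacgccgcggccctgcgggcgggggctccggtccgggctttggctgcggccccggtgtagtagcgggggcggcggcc
Mlx: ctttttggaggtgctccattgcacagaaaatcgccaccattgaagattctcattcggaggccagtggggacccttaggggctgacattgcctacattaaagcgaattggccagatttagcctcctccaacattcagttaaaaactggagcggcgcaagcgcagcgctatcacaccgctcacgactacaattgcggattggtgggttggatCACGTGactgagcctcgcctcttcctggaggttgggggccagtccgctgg
Mxd4: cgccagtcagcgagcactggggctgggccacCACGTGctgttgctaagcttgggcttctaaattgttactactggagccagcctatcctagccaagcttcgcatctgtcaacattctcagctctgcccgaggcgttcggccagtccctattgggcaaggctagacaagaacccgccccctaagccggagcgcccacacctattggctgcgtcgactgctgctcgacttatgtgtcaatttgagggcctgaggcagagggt
Mxd3: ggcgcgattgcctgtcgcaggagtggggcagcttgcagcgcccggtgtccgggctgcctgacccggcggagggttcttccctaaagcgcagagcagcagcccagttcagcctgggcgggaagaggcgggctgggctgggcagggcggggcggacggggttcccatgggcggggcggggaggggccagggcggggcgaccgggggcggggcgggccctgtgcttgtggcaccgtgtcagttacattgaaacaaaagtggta

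Myc (chr15:61985391-61990374, plus strand in the GENCODE M21 annotation of mm10) was highest in non-Tfh cells. Its level ranged from 111.6 to 230.1 CPM (median 158.7) in non-Tfh WT and from 167.3 to 249.5 (median 215.4) in non-Tfh KO. In Tfh cells it ranged from 51.0 to 95.7 (median 76.2) in WT and from 50.9 to 108.3 (median 73.4) in KO, so no Tfh sample reached the lowest non-Tfh sample of either genotype. Non-GC B WT samples had 92.7, 89.9, 114.6, 95.4 and 92.4 CPM, and non-GC B KO samples had 124.1, 70.9, 52.0 and 73.6. GC B samples ranged from 60.3 to 94.9 (median 73.4) in WT and from 51.3 to 87.0 (median 70.1) in KO. The GC B and non-GC B samples overlapped in both genotypes. In the order of the 8 group means, from non-Tfh KO (217.1 ± 31.3, SD, n = 6) and non-Tfh WT (164.6 ± 38.2, n = 6) down to GC B KO (69.7 ± 13.4, n = 6), the gaps after the first and the second place were larger than the SDs of the groups beside them, and the other 6 groups followed each other within their SDs.

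Mycn, the neuronal relative of Myc, was at 0 counts in 35 of 45 samples and at 3 counts or fewer in 42. Its highest value was 6 counts (0.171 CPM), and a count of 0 allows up to 0.0659 to 0.114 CPM (3 counts at the highest and lowest library total, counting error only). It did not pass the filter on low counts, and the other 9 members were tested in each comparison.

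Per kilobase of merged exon, Mlx had the highest mean of the members in 5 of the 8 groups and Myc in the other 3. The gap between Mlx and Myc was within their SDs in GC B WT (28.3 ± 2.9 and 27.8 ± 4.5 CPM per kb). The same held in GC B KO (27.4 ± 5.5 and 25.6 ± 4.9) and non-GC B KO (32.9 ± 2.2 and 29.5 ± 11.4). Max (chr12:76937269-76962201, minus strand), the shared partner, stood at 17.3 ± 6.7 CPM per kb in GC B WT and 29.3 ± 4.5 in Tfh WT (n = 6 each). Mlx (chr11:101087277-101092207, plus strand) stood at 28.3 ± 2.9 and 51.5 ± 3.1. The opposite-strand gene Psmc3ip covers 19.3% of the Mlx exon bases, and for Mxd4, Mxd3, Mlxip and Mxi1 opposite-strand genes cover 6.06%, 4.43%, 3.21% and 2.84%. The strand setting of the counting is not given in the sources used here, so reads from these stretches could not be assigned to a gene with certainty.

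**Figure D1:**
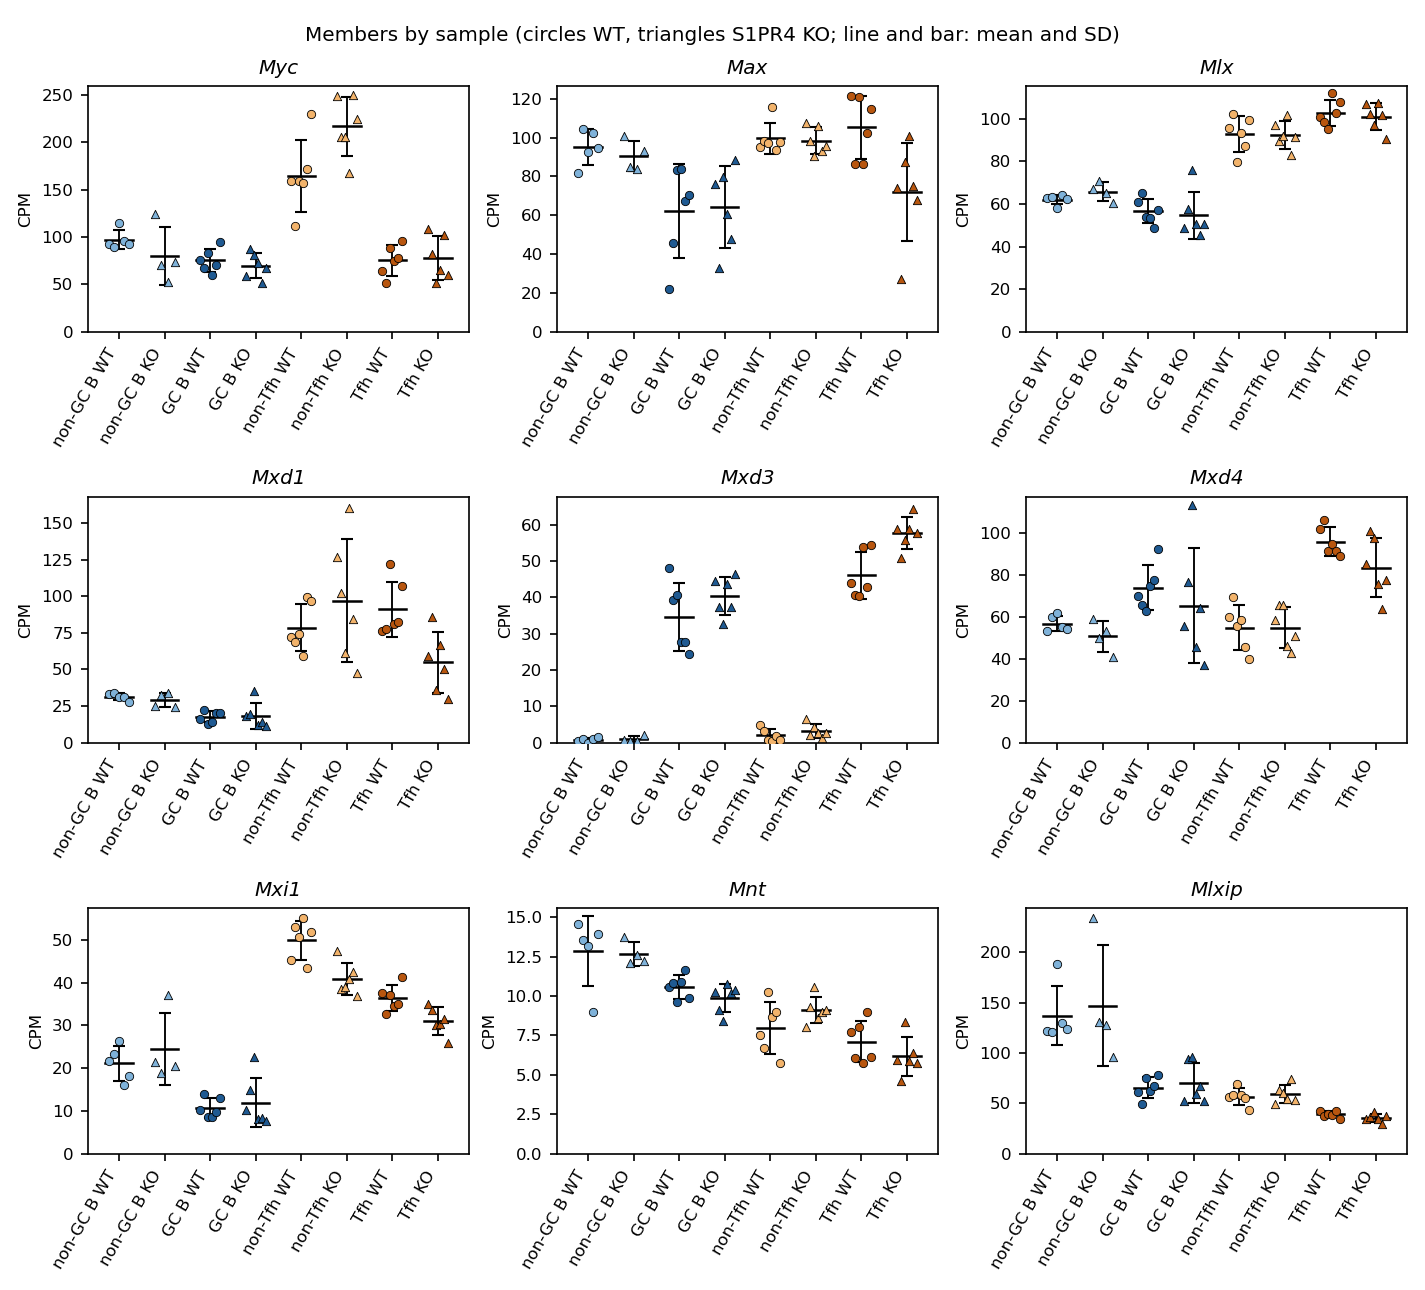
Levels of the 9 tested members in CPM (vertical axes, starting at 0) in each of the 45 samples of the 8 groups. Circles are WT and triangles KO samples, and the line and bar give the mean and SD of a group. Mxd3 lies at 6.47 CPM or lower in non-GC B and non-Tfh samples and at 24.4 or higher in GC B and Tfh samples.

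To see how the network differed between germinal center cells and their counterparts, GC B cells were compared with non-GC B cells in each genotype. In WT mice 1 member rose and 3 fell, where a call needs an edgeR adjusted p under 0.05 and a fold over 1.5, and 24.8% and 23.1% of the 13324 tested genes were called higher and lower. Mxd3 rose from 0.81 ± 0.59 (n = 5) to 34.7 ± 9.4 CPM (n = 6). Its samples stood at 0.42, 1.05, 0, 1.08 and 1.49 CPM in non-GC B WT and between 24.4 and 48.1 (median 33.5) in GC B WT, with no overlap. The log2 fold change was 5.52 ± 0.57 (SE, adjusted p = 2.88e-06). Mxd3 (chr13:55325168-55329823, minus strand) is the Mxd protein known to be expressed in the S phase of dividing cells. In bulk samples of sorted cells, fewer cells with a transcript and less transcript per cell cannot be told apart.

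The 3 members that fell in GC B WT were the repressors Mxd1 and Mxi1 and the metabolic sensor Mlxip. Mxd1 (chr6:86647042-86669161, minus strand), which is linked to differentiation and exit from the cycle, went from 33.1, 34.0, 31.4, 31.0 and 27.5 CPM in non-GC B to between 12.7 and 22.1 (median 18.1) in GC B, and its log2 fold change was -0.77 ± 0.15 (adjusted p = 0.000457). Mxi1 (chr19:53310518-53375810, plus strand) went from 16.1 to 26.4 CPM over the 5 non-GC B samples to between 8.45 and 13.9 (median 10.0), with -0.92 ± 0.17 (adjusted p = 0.000431). Mlxip (chr5:123394798-123457932, plus strand) went from 121.1 to 188.8 CPM to between 49.2 and 78.1 (median 64.6), with -1.002 ± 0.14 (adjusted p = 3.75e-05). For these 3 genes no GC B WT sample reached the lowest non-GC B WT sample. Mxd4, which was not called, had no overlap either, and the share of all tested genes without overlap was not computed. Plasma cell genes moved in the same comparison: 7 of 8 were called higher in GC B WT (median 3.25), with sums of 4043 to 8884 CPM against 512.7 to 860.6 in non-GC B WT. In KO mice 6 of 8 were called higher (median 3.68), and their part in the values of the members was not tested.

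Myc and Mxd4 did not pass the call in WT because their folds stayed under 1.5. The log2 fold change of Myc was -0.30 ± 0.11 (adjusted p = 0.0311), and that of Mxd4 (chr5:34173883-34187720, minus strand) was 0.44 ± 0.09 (adjusted p = 0.00111). Max had -0.55 ± 0.26 (adjusted p = 0.0785), and its 6 GC B WT samples spread from 22.2 to 83.8 CPM while the 5 non-GC B samples lay between 81.6 and 104.3. The adjusted p of Max fell to 0.0197 with all 8 groups in the fit and passed the call in 4 of the 8 alternatives that kept all samples. Mnt (chr11:74830920-74845725, plus strand), a repressor present in resting and cycling cells alike, had -0.22 ± 0.13 (adjusted p = 0.166), and Mlx had -0.07 ± 0.08 (adjusted p = 0.468).

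In KO mice 1 member rose and 2 fell in GC B cells, against 25.3% higher and 22.9% lower of 13484 tested genes. Mxd3 rose from 0.68, 0.36, 0.37 and 2.101 CPM to between 32.8 and 46.5 (median 40.5), a log2 fold change of 5.58 ± 0.48 (adjusted p = 1.8e-06). Mxi1 fell by 0.98 ± 0.32 on the log2 scale (adjusted p = 0.0188), and this call was lost without replicate 3 of non-GC B KO, which had 37.04 CPM against 18.9 to 21.3 in the other 3 (log2 fold change -0.71, adjusted p = 0.0934). Mlxip fell by 1.01 ± 0.25 (adjusted p = 0.0042), from 234.0, 131.0, 127.4 and 96.3 CPM to between 52.4 and 95.6, and by 0.70 (adjusted p = 0.0138) without replicate 1 of non-GC B KO, the sample that stood apart. Mxd1 had -0.58 ± 0.28 (adjusted p = 0.0917). Without replicate 3 of GC B KO, the sample with the high plasma cell genes, Mxd1 had -0.87 (adjusted p = 0.00252) and passed the call. That sample was the highest of its group in 5 of the 9 members (Mxd1, Mxd4, Mxi1, Mlx and Mlxip), and the part of plasma cell transcripts in this was not tested. Myc had -0.14 ± 0.22 (adjusted p = 0.589), with a 95% interval of -0.57 to 0.29, and 0.15 (adjusted p = 0.459) without that replicate 1. Max had -0.44 ± 0.23 (adjusted p = 0.117) and Mxd4 0.42 ± 0.26 (adjusted p = 0.181). Mnt had -0.30 ± 0.12 (adjusted p = 0.0448) at a fold under 1.5, and Mlx -0.21 ± 0.13 (adjusted p = 0.178).

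The same question was asked of T cells by comparing Tfh with non-Tfh cells. In WT mice Myc fell, and Mxd3 and Mxd4 rose, against 22.8% higher and 20.4% lower of 13481 tested genes. Myc went from 164.6 ± 38.2 to 75.2 ± 16.2 CPM (n = 6 each), a log2 fold change of -1.13 ± 0.16 (adjusted p = 2.15e-05). Mxd3 stood between 0.556 and 4.74 CPM (median 1.37) in non-Tfh and between 40.3 and 54.4 (median 43.4) in Tfh cells, a change of 4.52 ± 0.41 (adjusted p = 1.72e-07). The repressor Mxd4, which is found in differentiating cells, stood between 39.9 and 69.8 CPM in non-Tfh and between 89.4 and 106.6 in Tfh cells (0.80 ± 0.11, adjusted p = 1.7e-05). For all 3 genes the samples of the 2 populations did not overlap. The same held for Mxi1 and Mlxip, which were not called, and the share over all tested genes was not computed. Most B cell genes were higher in Tfh samples too. Of 12 tested in WT, 11 were called higher and 1 lower, and of 9 tested in KO, 6 higher and 1 lower. Their sums were 182.2 to 506.8 CPM in Tfh WT against 65.6 to 108.9 in non-Tfh WT. Cd22 (median 180.9 CPM) was a large part of the sums in Tfh WT and Cd72 (median 53.1 CPM) in non-Tfh WT. Of 7 plasma cell genes, 6 were called higher in WT and 7 in KO. The part of B cell and plasma cell transcripts in the values of the members was not tested.

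Mxi1 and Mlxip had adjusted p-values under 0.05 at folds under 1.5 in Tfh WT (-0.45 ± 0.08, adjusted p = 0.000104, and -0.53 ± 0.10, adjusted p = 0.000173), and Mlxip passed the fold without replicate 6 of non-Tfh WT (-0.61). Mxd1 had 0.22 ± 0.14 (adjusted p = 0.195), Mlx 0.15 ± 0.07 (adjusted p = 0.0701), Max 0.08 ± 0.09 (adjusted p = 0.464) and Mnt -0.17 ± 0.16 (adjusted p = 0.381). Counting on the adjusted p alone gave 5 members in WT and 8 in KO, where 68.7% and 70.7% of all tested genes passed it.

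In KO mice Mxd3 and Mxd4 rose and Myc, Mxd1 and Mlxip fell in Tfh cells, against 22.3% higher and 21.1% lower of 13390 tested genes. Myc went from 217.1 ± 31.3 to 77.9 ± 23.4 CPM (n = 6 each; -1.46 ± 0.17, adjusted p = 3.81e-06). Mxd3 had 4.17 ± 0.28 (adjusted p = 1.4e-08), with 1.28 to 6.47 CPM in non-Tfh and 50.9 to 64.4 in Tfh cells. Mlxip stood between 49.7 and 74.2 CPM in non-Tfh and between 29.7 and 41.4 in Tfh cells (-0.72 ± 0.10, adjusted p = 2.71e-05). For these 3 genes the populations did not overlap, and neither did they for Mxi1, which was not called. How many of all tested genes had no overlap was not computed. Mxd1 ranged from 47.5 to 160.4 CPM (median 93.4) in non-Tfh KO and from 29.6 to 86.2 (median 54.9) in Tfh KO, with overlap, and its change of -0.81 ± 0.30 (adjusted p = 0.0255) lost the call without replicate 3 or 6 of Tfh KO or replicate 1 or 4 of non-Tfh KO (adjusted p = 0.0505 to 0.0701). Mxd4 had 0.62 ± 0.13 (adjusted p = 0.000688), and its fold dropped under 1.5 without replicate 2 or 3 of Tfh KO or replicate 4 or 5 of non-Tfh KO (log2 fold change 0.55 to 0.56) and with scaling by total counts (0.54). Mnt (-0.55 ± 0.13, adjusted p = 0.00194), Mxi1 (-0.38 ± 0.08, adjusted p = 0.000738) and Mlx (0.14 ± 0.06, adjusted p = 0.0343) stayed under the fold, which Mnt passed without replicate 3 of Tfh KO (-0.66) or replicate 1 of non-Tfh KO (-0.59), and Max had -0.44 ± 0.21 (adjusted p = 0.0807).

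**Figure D2:**
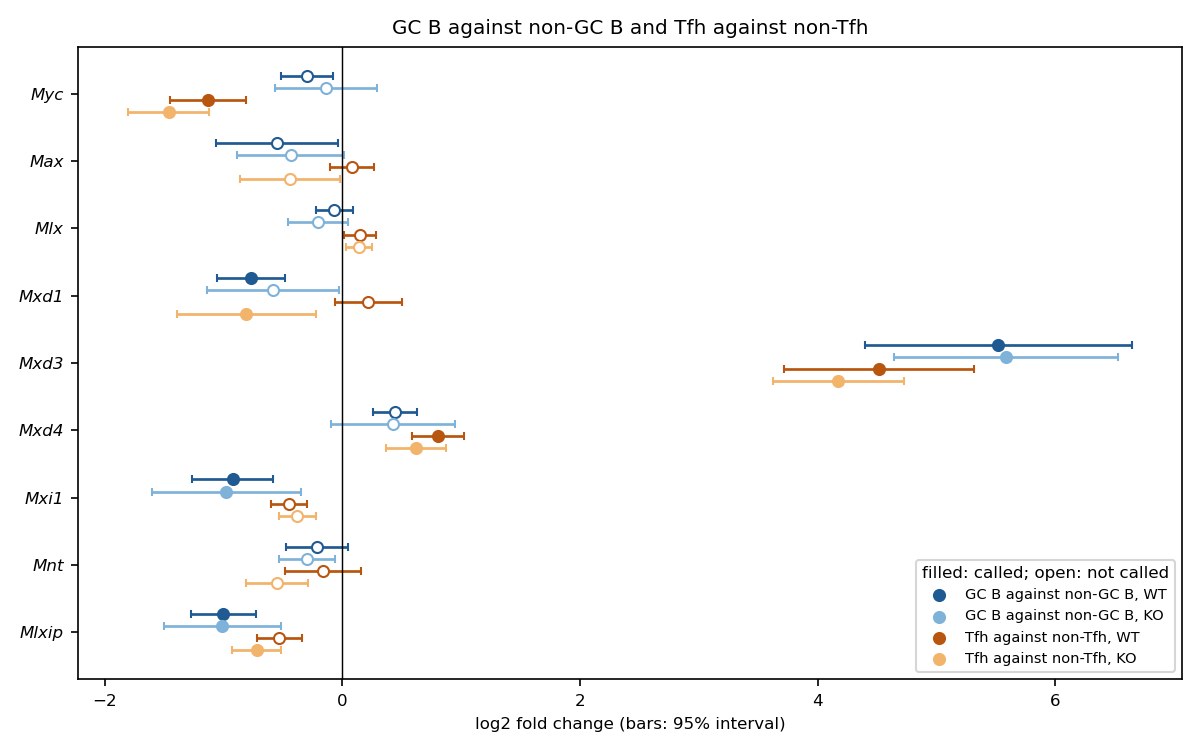
Log2 fold changes of the 9 tested members (horizontal axis, bars give 95% intervals) in GC B against non-GC B and Tfh against non-Tfh cells of each genotype. Filled points passed the call and open points did not. The 4 values of Mxd3 lie between 4.17 and 5.58, apart from those of the other members, which lie between -1.46 and 0.80.

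Whether the shift differed between the lineages was tested in WT mice as the GC B minus non-GC B change less the Tfh minus non-Tfh change. At an adjusted p under 0.05, 1 member was higher and 5 were lower in this contrast, against 20.3% and 21.4% of 15101 tested genes. Myc had a difference of 0.77 ± 0.22 on the log2 scale (adjusted p = 0.00625), as its level was less different between the B cell populations than between the T cell populations. Mxd1 had -1.05 ± 0.21 (adjusted p = 0.000409), Mxi1 -0.53 ± 0.18 (adjusted p = 0.0221), Mlxip -0.53 ± 0.17 (adjusted p = 0.0168), Mxd4 -0.42 ± 0.15 (adjusted p = 0.031) and Mlx -0.28 ± 0.10 (adjusted p = 0.0265). With all 8 groups in the fit, 2 of these 6 members, Myc and Mxd1, passed. Mxd4 did not pass in 7 of the refits that left out 1 sample (replicates 1 and 2 of Tfh WT, 5 of non-Tfh WT, 2 and 3 of GC B WT, and 2 and 3 of non-GC B WT), Mlx without replicate 1 of Tfh WT (adjusted p = 0.0656) and Mxi1 without replicate 3 of non-GC B WT (adjusted p = 0.0556). Mxd3 had 0.94 ± 0.69 (adjusted p = 0.295), Max -0.70 ± 0.29 (adjusted p = 0.0566) and Mnt -0.12 ± 0.21 (adjusted p = 0.707). The adjusted p of Max passed in 3 of its 7 alternatives that kept all samples, and without replicate 2 or 4 of Tfh WT or replicate 1, 3 or 4 of GC B WT (adjusted p = 0.0245 to 0.0487).

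GC B and Tfh cells, both residents of germinal centers, were also set side by side in WT mice. Mlxip was higher and Max, Mxd1, Mxi1 and Mlx were lower in GC B cells, against 20.1% higher and 24.2% lower of 13719 tested genes (67.8% passed the adjusted p alone, as did 8 members). The largest differences were those of Mxd1 (-2.36 ± 0.17, adjusted p = 2.12e-08) and Mxi1 (-1.76 ± 0.13, adjusted p = 4.65e-08), with no overlap of samples. Samples of Max, Mlx, Mlxip and Mnt did not overlap either, and the share of all tested genes without overlap was not computed. Mlx had -0.85 ± 0.07 (adjusted p = 1.27e-07), Mlxip 0.75 ± 0.10 (adjusted p = 1.98e-05) and Max -0.75 ± 0.25 (adjusted p = 0.0173), and the fold of Max dropped under 1.5 without replicate 1 of GC B WT (-0.57, adjusted p = 0.0055). Mnt had 0.58 ± 0.13 (adjusted p = 0.00105), just under the fold of 1.5, and passed it without replicate 1, 3 or 5 of Tfh WT or replicate 3 or 6 of GC B WT (0.59 to 0.66). Myc had 0.01 ± 0.15 (adjusted p = 0.938), with a 95% interval of -0.27 to 0.30. Between non-GC B and non-Tfh cells, Mnt and Mlxip were higher and Myc, Mxd1 and Mxi1 lower in the B cells, against 19.7% higher and 19.1% lower of 13669 tested genes. Myc had -0.70 ± 0.14 (adjusted p = 0.000889), which fell under the fold without replicate 6 of non-Tfh WT (-0.58). Mlxip had 1.34 ± 0.14 (adjusted p = 1.49e-06), Mxd1 -1.26 ± 0.13 (adjusted p = 1.69e-06), Mxi1 -1.17 ± 0.13 (adjusted p = 2.53e-06) and Mnt 0.75 ± 0.18 (adjusted p = 0.00248).

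The balance of the 5 repressors that bind Max (Mxd1, Mxd3, Mxd4, Mxi1 and Mnt) to Myc was computed from CPM per kilobase, as a description without a test. Their sum was 0.489 ± 0.051 times that of Myc in non-GC B WT (n = 5) and 1.09 ± 0.18 times in GC B WT (n = 6), with ranges of 0.438 to 0.564 and 0.806 to 1.29. It was 0.475 ± 0.119 times in non-Tfh WT and 1.88 ± 0.35 times in Tfh WT (n = 6 each), with ranges of 0.326 to 0.693 and 1.59 to 2.497. In KO mice the ratios were 0.635 ± 0.272 in non-GC B (n = 4), 1.25 ± 0.21 in GC B, 0.381 ± 0.124 in non-Tfh and 1.78 ± 0.48 in Tfh cells (n = 6 each). The KO ranges overlapped in B cells (0.369 to 1.01 in non-GC B and 0.993 to 1.53 in GC B) and not in T cells (0.255 to 0.602 in non-Tfh and 1.25 to 2.48 in Tfh). Mxd3 made up 2.02 ± 1.52% of the repressor sum in non-GC B WT, 48.7 ± 8.9% in GC B WT, 3.03 ± 2.48% in non-Tfh WT and 38.4 ± 3.9% in Tfh WT. These ratios and shares depend on the merged exon lengths used. Mxd3 had the shortest of the repressors (2.37 kb), against 4.63 kb for Mnt, 6.82 for Mxi1, 7.07 for Mxd1 and 8.48 for Mxd4. Shares of plain CPM would give Mxd3 less weight. Transcript ratios do not give the balance of the proteins, which was not measured.

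**Figure D3:**
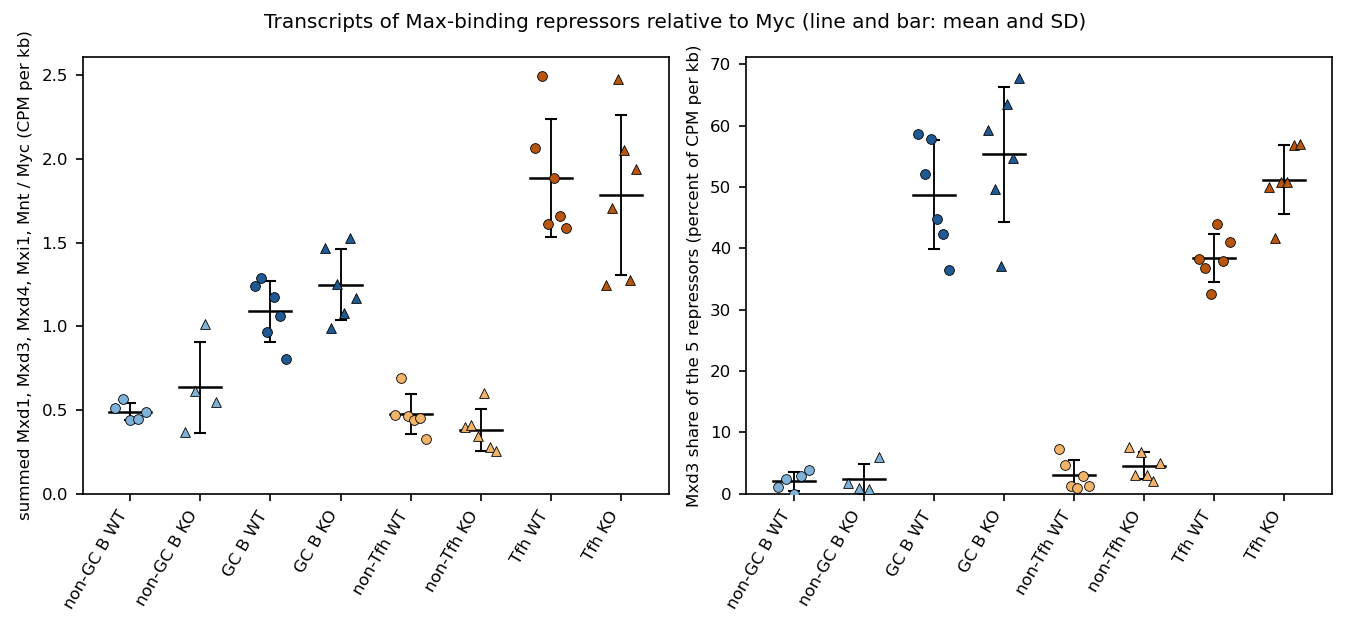
Left, the summed CPM per kilobase of Mxd1, Mxd3, Mxd4, Mxi1 and Mnt divided by that of Myc in each sample; right, the percent of that sum taken by Mxd3. Circles are WT and triangles KO samples, with the mean and SD of each group. In WT the ratio is 0.693 or lower in the 11 non-GC B and non-Tfh samples and 0.806 or higher in the 12 GC B and Tfh samples, while in KO the non-GC B samples reach 1.01 and the GC B samples start at 0.993.

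Mxd3 followed the genes of the dividing cell. The 12 proliferation genes summed to 196.0 to 238.7 CPM in non-GC B WT, 2574 to 5096 in GC B WT, 308.5 to 537.6 in non-Tfh WT and 2715 to 3799 in Tfh WT. In GC B against non-GC B and Tfh against non-Tfh cells of each genotype, 12 of 12 were called higher. Of all tested genes, 24.8% and 25.3% were called higher in GC B WT and KO, and 22.8% and 22.3% in Tfh WT and KO. The 5 genes whose log2 CPM was most like that of Mxd3 over the 45 samples, among 12026 genes, were Ska1 (Pearson r = 0.975), Ckap2 (0.974), Nusap1 (0.964), Prc1 (0.964) and Ezh2 (0.964). Ska1, Nusap1 and Prc1 act on the mitotic spindle, and Ezh2 is a histone methyltransferase. The points share libraries and fall into few groups, so these values describe the pattern over populations. The 5 genes most like Myc were Dph5 (0.880), Sh3gl1 (0.871), G0s2 (0.864), Pik3r5 (0.862) and Stx1a (0.861).

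**Figure D4:**
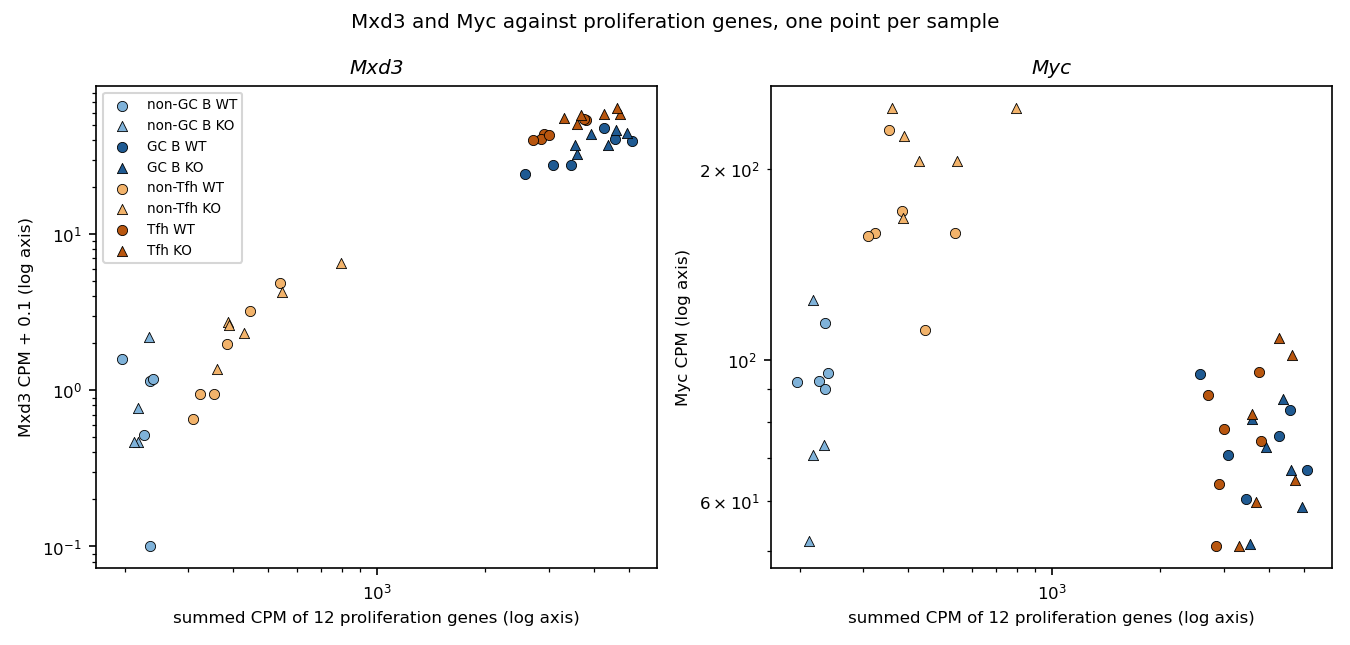
Level of Mxd3 (left, CPM plus 0.1) and Myc (right, CPM) against the summed CPM of 12 proliferation genes, all on log axes, with a point for each of the 45 samples. GC B and Tfh samples lie at 2574 CPM or more of the proliferation sum, where Mxd3 is 24.4 or higher and Myc is between 50.9 and 108.3 CPM.

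Other parts of the network and the genes around it were taken from lists. Mga, a large repressor that binds Max, fell in GC B cells (-0.90 ± 0.15 in WT and -0.88 ± 0.11 in KO) and in Tfh cells (-0.82 ± 0.16 and -0.83 ± 0.15), each with an adjusted p at or under 0.000293. Mycl, at low levels, rose in Tfh WT from 0.215 to 1.83 CPM (3.10 ± 0.65, adjusted p = 0.000624). In Tfh against non-Tfh KO, Mycl did not pass the filter on low counts. Txnip, the best known target of Mlxip, fell in each of these 4 comparisons, by 1.54 ± 0.18 and 1.72 ± 0.18 on the log2 scale in GC B cells of WT and KO and by 1.75 ± 0.22 and 2.32 ± 0.14 in Tfh cells. It went with Mlxip in direction in these comparisons, and the relation between them was not tested. Arrdc4, the other listed target, fell by 0.68 ± 0.26 in Tfh KO (adjusted p = 0.0277). In Tfh WT the change of Arrdc4 was positive, opposite to that of Mlxip, and was not called. In the GC B comparisons Arrdc4 did not pass the filter on low counts.

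Of 14 cofactors of Myc and the Mxd proteins, 3 rose in GC B cells of each genotype and 1 in Tfh cells of each genotype, and Ep400, a chromatin remodeller, fell in Tfh KO (-0.64 ± 0.12, adjusted p = 0.000207). Of all tested genes 24.8% and 25.3% rose in GC B WT and KO and 22.8% and 22.3% in Tfh WT and KO, so the rises of this list lay near or below the share of all genes. Sap30, a subunit of the Sin3 corepressor that Mxd proteins recruit, rose by 1.71 ± 0.13 and 1.87 ± 0.11 in GC B cells and by 1.25 ± 0.17 and 1.81 ± 0.15 in Tfh cells. Ruvbl2, a helicase of the complexes that Myc recruits, rose by 1.15 ± 0.10 and 1.14 ± 0.09 in GC B cells. Of 12 genes that set the stability of the Myc protein, 5 rose and 1 fell in GC B WT, 5 and 2 in GC B KO, 2 and 4 in Tfh WT, and 2 and 5 in Tfh KO. Over all tested genes the shares that rose and fell were 24.8% and 23.1% in GC B WT, 25.3% and 22.9% in GC B KO, 22.8% and 20.4% in Tfh WT, and 22.3% and 21.1% in Tfh KO. The 2 rises in Tfh cells lay near these shares. The kinase Aurka rose by 4.54 ± 0.29 in GC B WT and 4.18 ± 0.16 in Tfh WT, and the ubiquitin ligase subunit Skp2 by 2.31 ± 0.19 and 1.53 ± 0.19. Gsk3b, the kinase that marks Myc for degradation, fell in GC B WT by 0.61 ± 0.11. The count of falls of this list in GC B WT ranged from 0 to 1 without a sample in turn. Usp28 and Usp36, deubiquitinases that protect Myc, fell in Tfh WT by 2.47 ± 0.08 and 1.11 ± 0.10.

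Of 37 genes listed as induced by Myc, 17 rose and 0 fell in GC B WT and 21 rose and 0 fell in GC B KO, beside 24.8% and 25.3% of all tested genes that rose and 23.1% and 22.9% that fell. Their median log2 fold changes were 0.53 and 0.73, and those of all tested genes were 0.00 and 0.03. DESeq2 and voom also called 0 lower in both genotypes, and at an unadjusted p under 0.05 edgeR gave 5 lower in WT and 2 in KO. In Tfh cells 7 rose and 8 fell in WT and 9 rose and 7 fell in KO, near the shares of all tested genes (22.8% and 20.4% in WT, 22.3% and 21.1% in KO), with medians of 0.04 and -0.00. Hk2, a hexokinase, rose in all 4 comparisons, from 3.03 to 18.2 CPM in B cells of WT mice (2.66 ± 0.44) and from 1.33 to 11.3 in T cells of WT mice (3.09 ± 0.23). Odc1, the first enzyme of polyamine synthesis, rose from 75.9 to 232.7 CPM in GC B WT and from 72.9 to 425.1 in Tfh WT. Shmt2, a mitochondrial enzyme of the folate pathway, rose in GC B KO by 1.67 ± 0.11. Ccnd2, which encodes cyclin D2, and the transcription factor Tfap4 fell in Tfh WT by 1.003 ± 0.13 and 1.64 ± 0.24. Many of these genes serve ribosome production and growth, processes that other factors control as well.

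**Figure D5:**
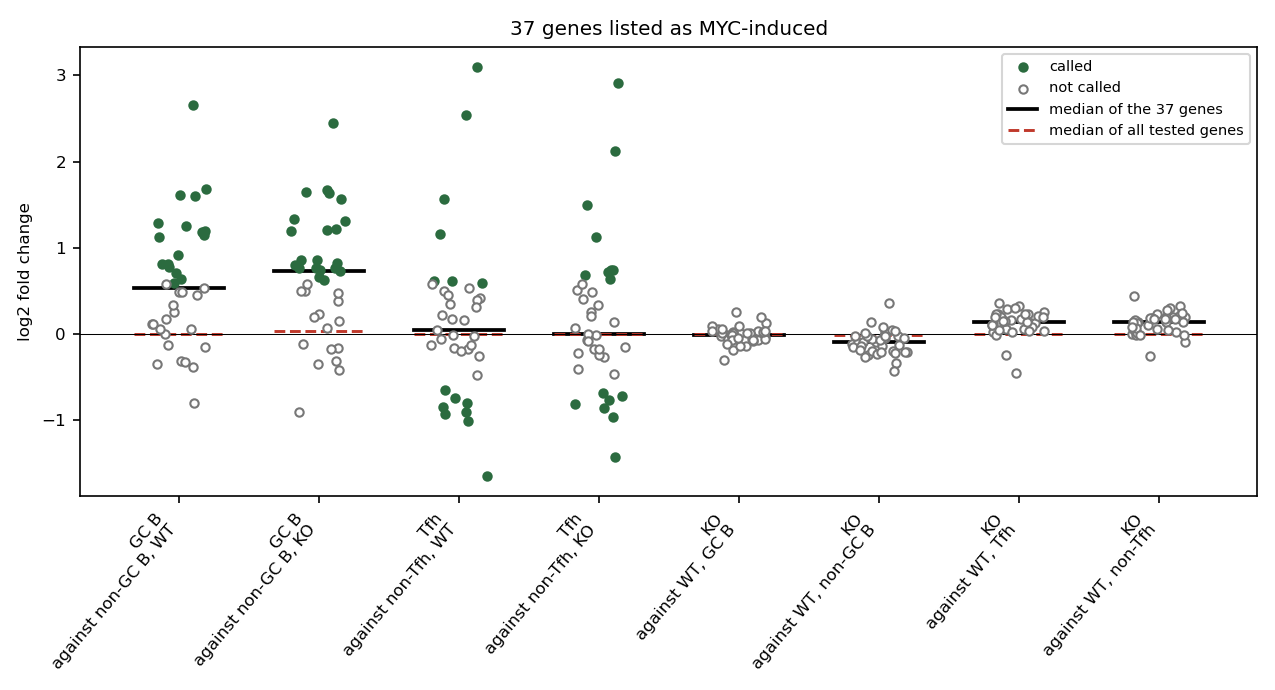
Log2 fold changes (vertical axis) of the 37 genes listed as induced by Myc in 8 comparisons, with a point per gene, filled where called. Black lines mark the median of the list and dashed red lines that of all tested genes. The list median is 0.53 in GC B WT and 0.04 in Tfh WT.

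Of 6 genes listed as repressed by Myc, 1 rose and 2 fell in GC B WT and 2 rose and 1 fell in GC B KO. Of the 5 tested in Tfh cells, 2 rose and 0 fell in WT (0 fell by DESeq2 and voom too, and 1 had an unadjusted p under 0.05), and 2 rose and 2 fell in KO. With 20.4% to 25.3% of all tested genes called in each direction of these comparisons, counts over 6 genes say little about the list. The cell cycle inhibitor Cdkn1a rose in all 4 comparisons, from 1.05 to 12.3 CPM in Tfh WT (3.55 ± 0.31) and from 1.37 to 3.09 in GC B WT (1.24 ± 0.25). Its change in GC B KO was 0.72 ± 0.28 (adjusted p = 0.0384), and the 2 rises of the list in GC B KO dropped to 0 without replicate 1, 2 or 3 of GC B KO. Cdkn1b, another inhibitor, fell in GC B cells of both genotypes by 1.47 ± 0.22 and 1.57 ± 0.29. Gadd45a, a stress response gene, fell in GC B WT by 0.79 ± 0.13 and rose in Tfh WT by 1.24 ± 0.15 and in Tfh KO by 1.99 ± 0.15. Ndrg1 and Cdkn1c fell in Tfh KO by 0.59 ± 0.18 and 0.72 ± 0.22, and the count of falls there ranged from 1 to 2 without a sample in turn.

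Whether loss of S1PR4 changed the network was tested in each population. No member was called: edgeR, DESeq2 and voom gave 0 of 9 in GC B, non-GC B, Tfh and non-Tfh cells, where 0.0612%, 0.0537%, 0.496% and 0.114% of all tested genes were called. At an unadjusted p under 0.05 there were 0 members in GC B and 0 in non-GC B cells (4.13% and 4.55% of all tested genes), 4 in Tfh cells (19.2% of all) and 2 in non-Tfh cells (11.3% of all). Myc had log2 fold changes of -0.12 in GC B (95% interval -0.39 to 0.16), -0.27 in non-GC B (-0.67 to 0.12), 0.05 in Tfh (-0.32 to 0.42) and 0.40 in non-Tfh cells (0.13 to 0.67, unadjusted p = 0.0117, adjusted p = 0.279). The value in non-GC B cells ranged from -0.56 to -0.11 with a sample left out in turn (edgeR adjusted p of 0.749 or more). Replicate 1 of non-GC B KO, the sample that stood apart, had the highest Myc of its group. The members spread from -0.17 (Mxd4) to 0.21 (Mxd3) in GC B and from -0.27 (Myc) to 0.21 (Mxi1) in non-GC B cells.

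In Tfh cells the 4 members were Mxd1, Mxd3, Mxi1 and Max. Mxd1 ranged from 76.2 to 122.0 CPM (median 81.8) in WT and from 29.6 to 86.2 (median 54.9) in KO, and 1 KO sample lay within the WT range (-0.74 ± 0.22, adjusted p = 0.0895). Without replicate 2 of Tfh KO, the sample with 86.2 CPM, it passed the call (-0.92, adjusted p = 0.0381), and over the 9 alternatives that kept all samples its adjusted p ranged from 0.0512 to 0.142. Replicate 6, the sample with the high myeloid genes, had the lowest Mxd1 of the group, and without it Mxd1 had -0.61 (adjusted p = 0.132). Mxd3 went from 46.01 ± 6.4 to 57.8 ± 4.4 CPM (0.32 ± 0.09, adjusted p = 0.0716), beside proliferation sums of 2715 to 3799 CPM in WT and 3309 to 4719 in KO. The adjusted p of Mxd3 ranged from 0.0149 to 0.823 over the 9 alternatives and from 0.0369 to 0.156 without a sample in turn. Its fold stayed under 1.5 in all of them. Mxi1 had -0.23 ± 0.08 (adjusted p = 0.119). Max had -0.56 ± 0.22 (adjusted p = 0.193), with 26.9 to 100.7 CPM in KO and 86.2 to 121.6 in WT. B cell and plasma cell genes differed between the same samples. The 12 B cell genes summed to 182.2 to 506.8 CPM in Tfh WT and 161.7 to 300.4 in Tfh KO, and a large part was Cd22, with medians of 180.9 and 180.2 CPM. Cd22 reached at most 223.3 CPM in Tfh WT, so it was not most of the sum in replicates 1 and 2 (448.0 and 506.8 CPM). Of the 12, 11 had negative changes in KO (median -2.24), 8 with an unadjusted p under 0.05, and Blnk was called (-2.99, adjusted p = 0.0394). Of 7 plasma cell genes tested, Mzb1 (-4.35), Jchain (-3.64) and Derl3 (-1.88) were called lower in KO, and the sums were 285.1 to 661.9 CPM in WT and 241.4 to 288.7 in KO. Ebf1, Fcer2a, Fcrla, Mzb1 and Tnfrsf17 were at 0 in at least 1 Tfh KO sample. The part of these transcripts in the values of the members was not tested.

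In non-Tfh cells Mxi1 went from 49.8 ± 4.6 to 40.8 ± 3.8 CPM (-0.29 ± 0.08, adjusted p = 0.158) and Mxd3 from 2.00 ± 1.65 to 3.22 ± 1.84 CPM (0.69 ± 0.49, adjusted p = 0.672). In the deposited table the columns list replicates 1 to 3 of both genotypes before 4 to 6 for T cells and GC B cells, and the leading component of the 12 non-Tfh samples separated these sets without overlap, while in the 12 Tfh and the 12 GC B samples the sets overlapped on the leading component. No label names a batch. Myc in non-Tfh WT averaged 143.0 CPM in replicates 1 to 3 and 186.2 in 4 to 6, and in non-Tfh KO 220.2 and 213.9. With a term for the 2 sets, an alternative chosen after seeing the data, Myc had 0.41 (adjusted p = 0.23) and no member was called in these comparisons.

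The effect of the knockout did not differ detectably between populations of a lineage. For GC B less non-GC B, 0 of 9 members passed by edgeR, DESeq2 or voom (0% of all 14490 tested genes), 0 had an unadjusted p under 0.05 (4.58% of all), and the differences lay between -0.14 (Mlx) and 0.19 (Mxd1). For Tfh less non-Tfh, 0 of 9 passed by the same tools (0.0139% of 14401 tested genes) and 2 had an unadjusted p under 0.05 (9.2% of all). These were Mxd1 (-1.05 ± 0.35, adjusted p = 0.362) and Max (-0.54 ± 0.25, adjusted p = 0.515). Myc had -0.35 ± 0.25 (adjusted p = 0.713). The call of Mxd1 in Tfh against non-Tfh cells of KO and not of WT mice is thus not shown to be a difference between genotypes.

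Genes around the network were tested in the same way. Of the 37 genes induced by Myc, edgeR, DESeq2 and voom called 0 between KO and WT in each of the 4 populations. In Tfh cells 34 of the 37 had positive changes (median 0.13, 14 with an unadjusted p under 0.05), and in non-Tfh cells 31 did (median 0.15, 12 with an unadjusted p under 0.05), while 49.4% and 51.2% of all tested genes were positive and 19.2% and 11.3% had an unadjusted p under 0.05 in either direction. In GC B cells 18 of 37 were positive and in non-GC B cells 8 of 37 (medians -0.01 and -0.09), with 51.7% and 48.2% over all genes. The 12 proliferation genes, of which 0 were called by the 3 tools in any population, were positive in 12 of 12 cases in both T cell populations (medians 0.34 and 0.35), 11 with an unadjusted p under 0.05 in Tfh cells (19.2% of all genes) and 1 in non-Tfh cells (11.3%). These comparisons share samples with those between populations and are not independent of them.

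Max, like some other members, varied more within some groups than most genes did. The SD of its log2 CPM was at percentile 96.0 of 9932 genes in GC B WT, 91.9 in GC B KO and 96.4 in Tfh KO, and at 20.8 to 37.6 in non-Tfh and non-GC B groups and 79.3 in Tfh WT. In GC B KO the percentiles of Mxi1, Mxd1 and Mxd4 were higher than that of Max (93.4, 93.1 and 92.6). In Tfh KO Mxd1 was at 95.4 and Myc at 93.2, and in non-Tfh KO Mxd1 was at 95.4. GC B WT samples had 22.2, 45.5, 83.3, 83.8, 67.4 and 70.5 CPM, GC B KO samples 75.8, 32.7, 79.7, 60.5, 47.8 and 88.3, and Tfh KO samples 73.9, 26.9, 87.5, 100.7, 74.9 and 67.9. The lowest values were those of replicate 1 of GC B WT and replicate 2 of Tfh KO, and all 21 non-GC B and non-Tfh samples had 81.6 CPM or more. This spread was singled out after the values were seen.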

How the data were processed

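RNA from sorted lymphocytes of 45 samples in 8 groups was sequenced by the authors after oligo-dT capture, with a stranded library kit. The deposited table holds expected counts per gene, which per the labels and the study's methods were made by trimming with Cutadapt 2.10, alignment to mm10 with STAR 2.5.3, duplicate marking with Picard and quantification with RSEM 1.3.0. The methods name GENCODE M30, and 55423 of the 55450 symbols were found in release M21, from which positions and merged exon lengths were taken. The expected counts, of which 8.83% were not whole, were rounded.

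Each comparison was fitted on its own groups with edgeR 4.0.16 (R 4.3.3): filterByExpr, TMM normalization and the quasi-likelihood test, with Benjamini-Hochberg adjustment over all genes tested. A call needs an adjusted p under 0.05 and a fold over 1.5, or the adjusted p alone for differences of changes. CPM values are TMM-scaled over all 45 samples. Alternatives used DESeq2 1.42.0, voom in limma 3.58.1, other scalings and filters, a replicate block and each sample left out. The pipeline was tested on simulated counts. Library totals (26299429 to 45548215) limit the precision of low genes such as Mycn.

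The labels number replicates in each group but do not say what a number shares. Deviations of same-numbered samples from their group means correlated above 0.1 in 6 of 6 pairs for Tfh and non-Tfh KO (0.129 to 0.239). This was not so in every pair elsewhere (-0.0943 to 0.347), and only the Tfh and non-Tfh KO samples were taken as paired. The main fits used no replicate block, also for Tfh against non-Tfh KO and the knockout effect of Tfh less non-Tfh. Their values thus leave out the pairing, and the block was run as an alternative. The study's methods give 6 WT and 6 S1PR4-/- mice for the sorts, and neither they nor the labels tie a sample to a mouse, so p-values measure the spread between samples.

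Members and gene lists were chosen with earlier results of these data known. All 10 members are named; from each list, those called with at least 1 CPM on average, up to the 2 largest rises and 2 largest falls, and for likeness the 5 genes with the highest Pearson r. Not all of those named by the rule are printed.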

Additional observations from a re-analysis of the deposited data

Results flagged for a closer look

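Of 72 sets of samples (9 members in 8 groups, Mycn left out as it lay at the floor), 6 held a sample far from the others by Dixon's test, which flags about 1 in 20 by chance. Replicate 4 of non-Tfh WT had 115.6 CPM of Max, against 93.6 to 98.2 in the others. Replicate 3 of non-GC B WT had 188.8 CPM of Mlxip, against 121.1 to 130.4, and 114.6 CPM of Myc, against 89.9 to 95.4. Replicate 4 of non-GC B WT had 8.995 CPM of Mnt, against 13.2 to 14.6. Replicate 3 of GC B KO had 35.3 CPM of Mxd1, against 11.5 to 19.5, and replicate 3 of non-GC B KO had 37.04 CPM of Mxi1, against 18.9 to 21.3.

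The shift from non-GC B to GC B differed from that between non-Tfh and Tfh cells in WT mice for 6 members by the test of the difference. The log2 differences were 0.77 for Myc, -1.05 for Mxd1, -0.53 for Mxi1, -0.53 for Mlxip, -0.42 for Mxd4 and -0.28 for Mlx. Lineage and day cannot be told apart in these values.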

How the results depend on the processing

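Over the alternatives that kept all samples, the counts of called members stayed within 1.5 times in 103 of 107 cases. The exceptions were calls on the adjusted p alone, with 5 members in Tfh against non-Tfh WT, 8 in Tfh against non-Tfh KO and 8 in GC B against Tfh, and the fit of all 8 groups, with 2 members in the difference between lineages. Without a sample in turn, members called ranged from 0 to 1 for KO against WT in Tfh cells and from 3 to 5 for Tfh against non-Tfh KO. Signs turned for values that were not called: Myc in GC B against Tfh with total counts (-0.0503), Myc in GC B against non-GC B KO with the replicate block (0.0316), and, without a sample in turn, Myc in GC B against Tfh (-0.0790 to 0.0916), in GC B against non-GC B KO (-0.318 to 0.151) and in KO against WT Tfh (-0.0711 to 0.142), Mxi1 in KO against WT non-GC B (-0.0602 to 0.316) and Mxd1 in the knockout effect of GC B less non-GC B (-0.0910 to 0.292). The cause was not tested.

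With the replicate block, Mlxip in GC B against non-GC B KO lost the call (-0.86, adjusted p = 0.0527), Myc lost it in non-GC B against non-Tfh (-0.57), Mxd4 lost it in the difference between lineages (adjusted p = 0.0524), and Max passed in GC B against non-GC B WT (-0.72, adjusted p = 0.0285). In the paired comparison, Tfh against non-Tfh KO, the block kept 5 calls. Every sample correlated best with its own number in that comparison (6 of 6). In the others this held for 4 of 6 pairs in Tfh and non-Tfh WT, 4 of 5 in GC B and non-GC B WT and 0 of 4 in GC B and non-GC B KO. Called genes of the Myc-induced list ranged from 15 to 25 higher in GC B against non-GC B WT (17 in the report), 4 to 16 in Tfh against non-Tfh WT (7) and 8 to 14 in KO (9). Among all genes, the call count for KO against WT in Tfh cells moved from 67 to between 15 and 198 over the alternatives, in non-Tfh cells from 15 to between 11 and 52, in GC B from 8 to between 6 and 14 and in non-GC B from 7 to between 5 and 25. The term for replicates 1 to 3 against 4 to 6 gave Mxd3 in Tfh cells an adjusted p of 0.0302 at a fold under 1.5. Genes at low counts, Mxd3 in non-GC B cells and Mycn, are limited by depth.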
